A study of Mus musculus with 4 samples.

Results

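The serpins and Slpi, a group of protease inhibitor genes, are described here in C2C12 cells, a mouse myoblast line of strain C3H. Members were taken by symbol: every gene whose name begins with Serpin, a letter from a to i and a digit, and Slpi, without Serpina3n, Serpinh1, Serping1 and 3 pseudogene symbols ending in -ps. Of the 49585 genes in the count files 62 are described, 25 of clade A, 28 of clade B, 2 each of clades E, F and I, 1 each of clades C and D, and Slpi. Of these, 58 are annotated as protein-coding and 4 as some form of pseudogene. Messenger RNA was sequenced in 4 libraries of growing myoblasts. In the 2 control libraries the cells carried an empty pLXSN retroviral vector, and in the 2 others a retrovirus that drives C/EBPβ, the product of Cebpb and a DNA-binding protein of the basic leucine zipper class. Cells of both groups were kept as pools of stable transductants after 7 days in 1200 μg/ml G418, and were then grown for 48 h in medium with 10% serum. Whether both libraries of a group stem from their own transduction or dish is not given in the labels. The spread that the p-values rest on may therefore be technical.

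Serpins are single-chain proteins with an exposed reactive loop that acts as bait. When a target protease cuts the loop, the serpin refolds and holds the enzyme in an inactive covalent complex, so each molecule is used once. Clades A, C, D, E, F and I are mostly secreted and act on clotting, fibrinolytic and inflammatory proteases in blood and matrix, whereas clade B, the ovalbumin type, mostly stays inside cells and guards them against their own or incoming proteases. Slpi is not a serpin: it is a small secreted protein built of whey acidic protein domains that blocks neutrophil elastase and cathepsin G. In muscle and fibroblast cultures the family is known mainly for secreted members that limit how fast cells degrade the matrix around them.

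C/EBPβ libraries held more RNA for Slpi and for 3 secreted serpins, and less RNA for 2 abundant intracellular ones. The called members did not split by clade type. Serpinb1b, of the mostly intracellular clade B, also rose, and Serpind1, of the mostly secreted clade D, fell, both at low levels. Of the 62 members, 21 had enough counts to be tested, and 5 rose (Slpi, Serpina12, Serpinb1b, Serpine2 and Serpinf1) while 3 fell (Serpind1, Serpinb9b and Serpinb6a). Among all 15078 genes tested, 24.9% passed the same threshold, an adjusted p of 0.05 in edgeR's quasi-likelihood test with Benjamini-Hochberg adjustment, with 14.1% higher and 10.8% lower. The median log2 fold change (C/EBPβ over empty vector throughout) was 0.13 over the 21 tested members and 0.00055 over all genes tested. The 2 groups did not overlap in 16 of the 21, against 66.2% of all genes tested. Only members with enough counts in at least one group enter these counts, so they do not describe all 62. Cells of a different kind in the pool and a different amount of RNA in each cell cannot be told apart in bulk libraries.

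**Figure D1:**
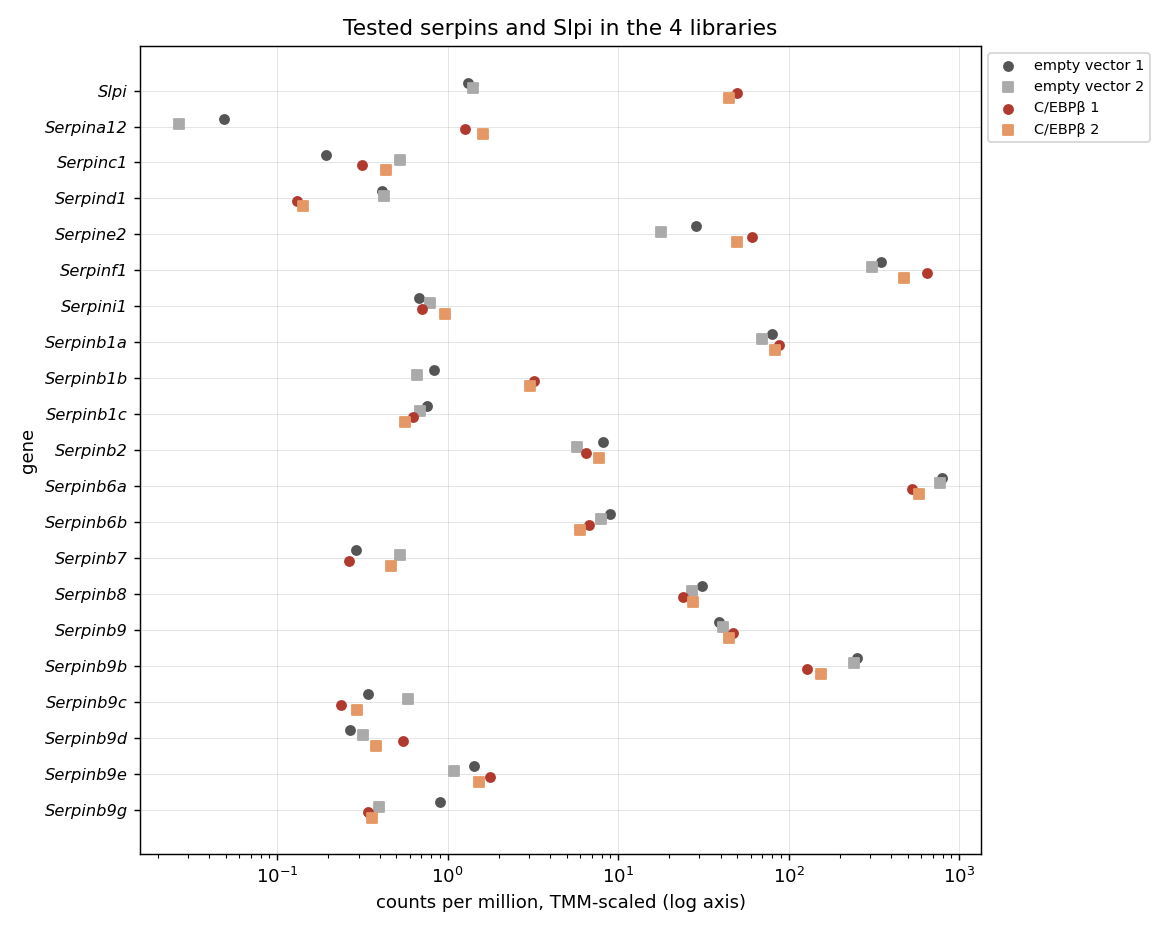
Level of each of the 21 tested members in each library, in TMM-scaled CPM on a log axis; circles are replicate 1 and squares replicate 2, grey for empty vector and red or orange for C/EBPβ. Slpi stands at 1.31 and 1.4 in the empty vector libraries and at 49.7 and 44.4 in the C/EBPβ libraries, while most clade B genes lie close together in all 4.

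The libraries held between 37566321 and 92027838 counts assigned to genes, the deepest being C/EBPβ replicate 2, so that 1 count was worth 0.0264 to 0.0109 CPM (counts per 1000000 counts of the library, with the TMM scaling of edgeR). Transcripts of the mitochondrial genome took 0.954% to 1.38% of the counts. Cebpb, the overexpressed gene, stood at 85.0 and 76.8 CPM in the empty vector libraries and at 483 and 473 CPM with C/EBPβ. All 10 myoblast markers were expressed, with desmin (Des) at 1296 and 1335 CPM in the controls and 855 and 919 CPM with C/EBPβ. Of the 10, 6 fell and 4 rose, beside 10.8% and 14.1% of all genes tested.

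Slpi had the smallest p of the described members. It lies on chromosome 2 between 164354070 and 164389095 on the minus strand (GRCm38, the build of the count files), and its counts were 54 and 53 in the empty vector libraries against 1896 and 4084 with C/EBPβ. On the CPM scale these are 1.31 and 1.4 against 49.7 and 44.4. The control values are low and close to each other, and both C/EBPβ values lie far above them. The log2 fold change was 5.11 (SE 0.14), or 34.6-fold, with adjusted p = 5.53e-07. Unless another tool is named, every adjusted p comes from edgeR's quasi-likelihood test. Leaving out any 1 library gave values between 5.03 and 5.19.

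Promoter sequences of RefSeq (GRCm38.p6) were searched for letters that C/EBP proteins are known to bind, in a window from 250 bases before to 50 bases after the annotated start. The set below holds called members whose mean reached 5 CPM, without Serpinb6a, which has several annotated starts, and the 250 bases before the start are shown 5′ to 3′ on the gene's own strand, with any match to TTGCNNAA, read on either strand, in capitals. They are the promoters of Slpi (chr2:164356508-164356757, minus strand), Serpine2 (chr1:79858666-79858915, minus strand), Serpinb9b (chr13:33027164-33027413, plus strand) and Serpinf1 (chr11:75422624-75422873, minus strand).
Slpi: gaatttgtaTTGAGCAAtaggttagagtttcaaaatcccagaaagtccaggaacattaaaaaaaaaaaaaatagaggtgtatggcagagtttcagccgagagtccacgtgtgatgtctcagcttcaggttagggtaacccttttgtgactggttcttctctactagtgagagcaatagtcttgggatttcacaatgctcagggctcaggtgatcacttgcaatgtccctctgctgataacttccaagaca
Serpine2: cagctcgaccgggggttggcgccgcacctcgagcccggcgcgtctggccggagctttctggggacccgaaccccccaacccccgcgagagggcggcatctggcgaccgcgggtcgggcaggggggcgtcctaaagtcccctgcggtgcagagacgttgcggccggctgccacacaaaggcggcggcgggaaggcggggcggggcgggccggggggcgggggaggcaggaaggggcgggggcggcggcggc
Serpinb9b: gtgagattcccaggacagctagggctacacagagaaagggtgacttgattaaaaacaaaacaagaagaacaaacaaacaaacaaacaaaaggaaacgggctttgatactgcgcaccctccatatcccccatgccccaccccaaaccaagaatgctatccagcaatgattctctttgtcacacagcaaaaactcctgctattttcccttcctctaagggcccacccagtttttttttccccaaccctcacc
Serpinf1: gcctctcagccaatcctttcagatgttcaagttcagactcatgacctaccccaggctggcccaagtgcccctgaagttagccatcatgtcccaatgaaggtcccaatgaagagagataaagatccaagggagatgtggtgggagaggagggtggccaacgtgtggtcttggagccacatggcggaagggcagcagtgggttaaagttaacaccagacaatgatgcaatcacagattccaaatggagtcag
Slpi holds 1 match, which begins 241 bases before its start and reads TTGCTCAA on the opposite strand. The RefSeq starts of Slpi and Serpine2 lie inside their gene bounds in the count files, which reach 164389095 and 79861180. Starts nearer those ends were not searched. The windows of Serpine2, Serpinb9b and Serpinf1 hold none, and neither do those of the 2 annotated starts of Serpinb6a. Serpina12, which is too weakly expressed for the set shown, has a match (TTGCAAAA) that begins 90 bases before its start. Over the whole family 52 of 62 members had an entry, and 18 of their 61 promoters (29.5%) held TTGCNNAA, against 10.8% of all 32851 promoters. Some genes have overlapping windows, such as Serpina3f and Serpina7. By gene, 15 of the 52 members held a match, against 3298 of 27025 genes. The near-identical copies of the antitrypsin genes share some of these matches, as Serpina1a, Serpina1b, Serpina1d and Serpina1e all carry TTGCTTAA. Of the 20 tested members with an entry, 4 had a match: Slpi and Serpina12, which rose, and Serpinb2 and Serpinc1, which did not pass the test. The full palindrome TTGCGCAA, which the looser motif includes, was found in 1 of the 61 family promoters, that of Serpina5, and in 0.183% of all promoters. A match describes letters in this window and is not evidence of binding.

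Serpine2 and Serpinf1, both secreted and well expressed, rose. Serpine2, or protease nexin 1, inhibits thrombin and urokinase at the cell surface. It stood at 28.5 and 17.8 CPM in the controls and at 60.8 and 49.8 CPM with C/EBPβ, so every C/EBPβ value exceeds every control value. Its log2 fold change was 1.25 (SE 0.20, adjusted p = 0.00245), with a range of 0.95 to 1.63 when any 1 library was left out. From the same clade, Serpine3 held a single count in all 4 libraries.

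Serpinf1 encodes pigment epithelium-derived factor, a secreted serpin that does not inhibit proteases and is known as an antiangiogenic and neurotrophic protein. It was among the most abundant members, at 349 and 310 CPM in the controls and 649 and 476 CPM with C/EBPβ. The log2 fold change was 0.77 (SE 0.15, adjusted p = 0.00586). The higher C/EBPβ value came from replicate 1, and without that library the log2 fold change was 0.53. Its neighbour on chromosome 11, Serpinf2, which encodes the plasmin inhibitor antiplasmin, held 7 and 12 counts in the controls and 6 and 21 with C/EBPβ, too few for the test.

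Serpins of blood clotting control were near the limit of detection. Serpind1, which encodes heparin cofactor II, a thrombin inhibitor made mainly by the liver, held 17 and 16 counts in the controls and 5 and 13 with C/EBPβ. As CPM these are 0.413 and 0.423 against 0.131 and 0.141, because the last library is the deepest. Its log2 fold change was -1.58 (SE 0.39, adjusted p = 0.0195). The call rests on all 4 libraries, as it was lost whichever one was left out (adjusted p = 0.0867 and 0.119 when C/EBPβ replicate 1 or 2 was left out, 0.100 and 0.0944 for empty vector replicate 1 or 2). DESeq2 did not call it either (adjusted p = 0.186), and adjusted p ran from 0.0104 to 0.186 over the 11 alternatives that gave it a value, the stricter count filter giving none. Serpinc1, antithrombin, stood at 0.194 and 0.529 CPM in the controls and 0.315 and 0.435 CPM with C/EBPβ, with both C/EBPβ values between the controls (log2 fold change 0.13, SE 0.47, adjusted p = 0.876). The value was 0.99 without empty vector replicate 2, and its sign turned without empty vector replicate 1 (-0.44) or C/EBPβ replicate 2 (-0.18).

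Clade A, the antitrypsin type, is described here without Serpina3n, and its remaining members were almost silent in control cells. The 24 described members on chromosome 12 lie within 779.5 kb, from 103614786 to 104394257, and 21 of them had 0 counts in both empty vector libraries. Together they held 11 counts in the controls and 292 with C/EBPβ. Most of the latter were Serpina12, which encodes vaspin, a secreted serpin of fat tissue that inhibits kallikrein 7. It held 2 and 1 counts in the controls and 48 and 148 with C/EBPβ, or 0.0486 and 0.0264 CPM against 1.26 and 1.61 CPM. The ratio of C/EBPβ to empty vector was 39.7 with a 95% counting interval of 13.4 to 194, and the edgeR test gave adjusted p = 1.55e-04. Even after this rise Serpina12 stayed a weakly expressed gene.

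Several other clade A genes gave counts with C/EBPβ and none in the controls, 11 of the 24 in all. Of these, Serpina16, Serpina1c, Serpina3i and Serpina5 held 1 count each over the 4 libraries, and Serpina3c and Serpina3h held 2 each. The C/EBPβ libraries were deeper in total (38656497 and 92027838 counts, against 40912955 and 37566321). The extra depth lies in C/EBPβ replicate 2, as C/EBPβ replicate 1 held fewer counts than empty vector replicate 1. The part of depth in these low counts was not tested. Whether the 11 exceed the share among other genes with few counts was not tested. Serpina1d, one of the antitrypsin copies, held 12 and 12 counts with C/EBPβ. Setting the empty vector group to 3 counts in total, and taking the C/EBPβ count as exact, makes this 4.86-fold higher. Serpina3g, known as an intracellular inhibitor of cathepsins, held 11 and 10 counts and was 4.25-fold higher on the same floor. The other copies of the antitrypsin gene held at most 5 counts in any library. Serpina9 held 2 and 4 counts in the controls and 5 and 9 with C/EBPβ, and Serpina11 held 0 and 2 against 3 and 10, with a ratio of 3.95 and a counting interval of 0.894 to 36.0. These genes missed the low-count filter. With no filter Serpina1d and Serpina3g passed the quasi-likelihood test (adjusted p = 5.11e-04 and 0.00171). That setting also gave several called members far smaller adjusted p at nearly the same fold change. For Serpine2 the adjusted p went from 0.00245 to 1.10e-26, at log2 fold changes of 1.25 and 1.26. Serpina1d and Serpina3g also had 0 counts in the controls, so little weight rests on their passes. Reads that fit several gene copies equally were not counted, so the levels of the antitrypsin and Serpina3 copies are uncertain and may be too low. For Serpina11, 40.84% of the exon bases are shared with the gene model Gm28577 on the same strand, where reads were also not counted.

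Clade B, the ovalbumin type, held most of the expressed members. Of its 28 genes 14 could be tested, and 1 rose while 2 fell. The 2 that fell had the most counts of the clade. Serpinb6a, an intracellular inhibitor of trypsin-like proteases and cathepsin G, stood at 798 and 777 CPM in the controls and 529 and 583 CPM with C/EBPβ. The controls lie close together and well above both C/EBPβ values, and the log2 fold change was -0.50 (SE 0.10, adjusted p = 0.00657). Serpinb9b, a member of the granzyme inhibitor branch, fell from 253 and 240 CPM to 128 and 154 CPM (log2 fold change -0.81, SE 0.10, adjusted p = 8.88e-04). Both calls held when any 1 library was left out.

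Serpinb1b was the clade B gene that rose. It belongs to the leukocyte elastase inhibitor branch, and went from 0.827 and 0.661 CPM to 3.22 and 3.06 CPM (log2 fold change 2.07, SE 0.23, adjusted p = 4.12e-04). The C/EBPβ values agree closely and the groups are far apart. Its relative Serpinb1a, the main elastase and cathepsin G inhibitor of the branch, was far more abundant, at 79.8 and 70.1 CPM in the controls and 87.7 and 83.1 CPM with C/EBPβ, and did not pass (log2 fold change 0.19, SE 0.09, adjusted p = 0.174). Serpinb1c stood at 0.754 and 0.687 CPM against 0.629 and 0.566 CPM (log2 fold change -0.29, SE 0.28, adjusted p = 0.504). Whether the changes of the 3 relatives differ from one another was not tested.

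The granzyme inhibitor branch was present in 6 tested genes. Serpinb9, the inhibitor of granzyme B, stood at 39.2 and 41.2 CPM in the controls and 46.9 and 44.7 CPM with C/EBPβ (log2 fold change 0.19, SE 0.09, adjusted p = 0.153). The groups do not overlap, but the difference did not pass. Serpinb9c, Serpinb9d, Serpinb9e and Serpinb9g all lay between 0.236 and 1.78 CPM in the 4 libraries, with log2 fold changes of -0.74, 0.61, 0.38 and -0.89 and SEs of 0.39, 0.38, 0.24 and 0.42, and none passed. For Serpinb9g the value was -0.17 without empty vector replicate 1, which at 0.900 CPM was the highest library. Serpinb9f held 6 and 4 counts in the controls and 0 and 3 with C/EBPβ, a ratio of 0.182 with a counting interval of 0.0322 to 0.708. Serpinb9 genes are close copies of one another, so their counts are uncertain where reads fit more than 1 copy.

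In the Serpinb6 branch, Serpinb6b stood at 8.97 and 7.96 CPM in the controls and 6.76 and 6.0 CPM with C/EBPβ (log2 fold change -0.41, SE 0.14, adjusted p = 0.0696), which missed the threshold although the groups do not overlap. Serpinb6c held 5 and 11 counts in the controls and 2 and 4 with C/EBPβ. Serpinb6d held 1 and 1 against 6 and 12, a ratio of 5.47 with a counting interval of 1.31 to 48.6.

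**Figure D2:**
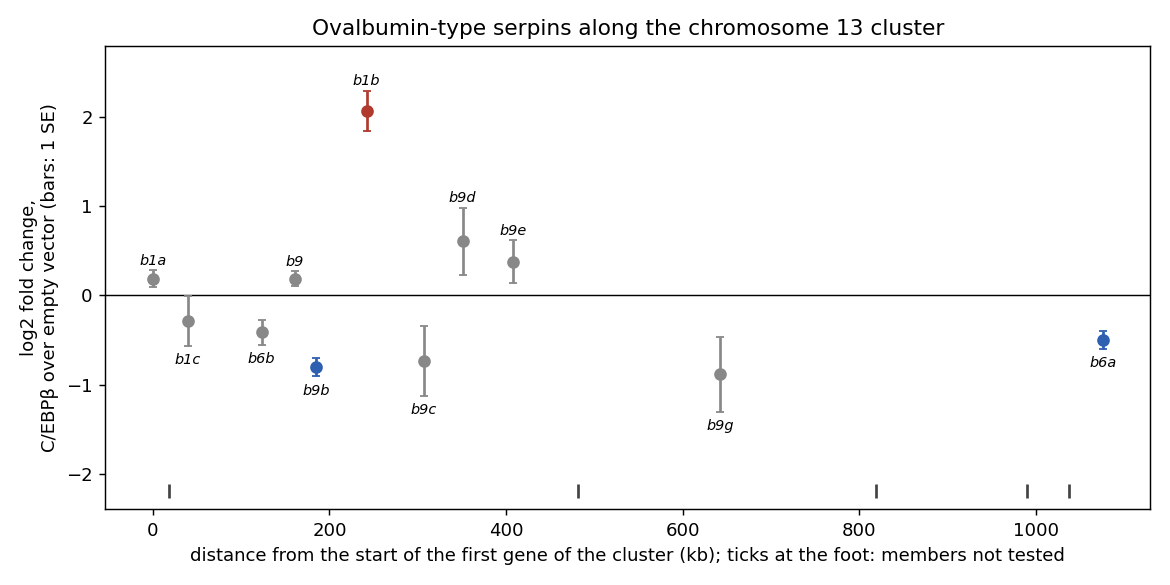
Log2 fold change (bars, 1 SE) of the 11 tested clade B genes of the chromosome 13 cluster against the distance of each gene's start from that of the first gene, in kb; red is higher, blue lower and grey not past the threshold. Of the 3 called genes, Serpinb1b (2.07) and Serpinb9b (-0.81) are next to each other with opposite signs, and Serpinb6a (-0.50) lies at the far end.

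Clade B genes sit in a cluster on chromosome 13, from 32842092 to 34002794, and another on chromosome 1, from 106861173 to 107610484. On chromosome 13, 11 of 16 members could be tested, and the calls were the 1 rise and the 2 falls above. Serpinb9b and Serpinb1b are neighbours there and moved in opposite directions, with starts 185.32 and 242.03 kb from that of the first gene. On chromosome 1, 3 of 12 members could be tested, and 7 had 0 counts in all libraries. Of the 3 tested, 0 passed in the edgeR fit, with 0 at an unadjusted p under 0.05, 0 in DESeq2 and 0 in limma-voom. Serpinb8, an inhibitor of furin-type and trypsin-like proteases, stood at 31.0 and 27.0 CPM against 24.1 and 27.4 CPM (log2 fold change -0.17, SE 0.11). Serpinb2, plasminogen activator inhibitor 2, stood at 8.10 and 5.74 CPM against 6.47 and 7.76 CPM, with both C/EBPβ values inside the range of the controls (0.05, SE 0.19), and 12.39% of its exon bases are shared with Serpinb10. Serpinb7 stood at 0.292 and 0.529 CPM against 0.262 and 0.468 CPM (-0.05, SE 0.43). Serpinb10 had 0 counts in both controls and 3 and 16 with C/EBPβ, 3.85-fold higher with the controls set to 3 counts in total. It passed when no low-count filter was used (adjusted p = 0.00636), with the limit given for Serpina1d.

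Serpini1, or neuroserpin, a tissue plasminogen activator inhibitor of nerve cells, was low, at 0.681 and 0.793 CPM in the controls and 0.708 and 0.969 CPM with C/EBPβ (log2 fold change 0.23, SE 0.29, adjusted p = 0.609). Serpini2 held 1 count in all. Outside the 21 tested genes, 41 members remain, of which 18 had 0 counts in every library, 16 had counts with C/EBPβ only and 1 with empty vector only. Those 41 summed to 56 counts in the controls and 178 with C/EBPβ, where the libraries were also deeper in total. Whether the 16 exceed the share among other genes with few counts was not tested, so nothing particular to these members is read from them. The pseudogenes Serpina4-ps1 and Serpinb1-ps1, whose names do not end in -ps and which the rule therefore keeps, held 0 and 6 counts over the 4 libraries.

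**Figure D3:**
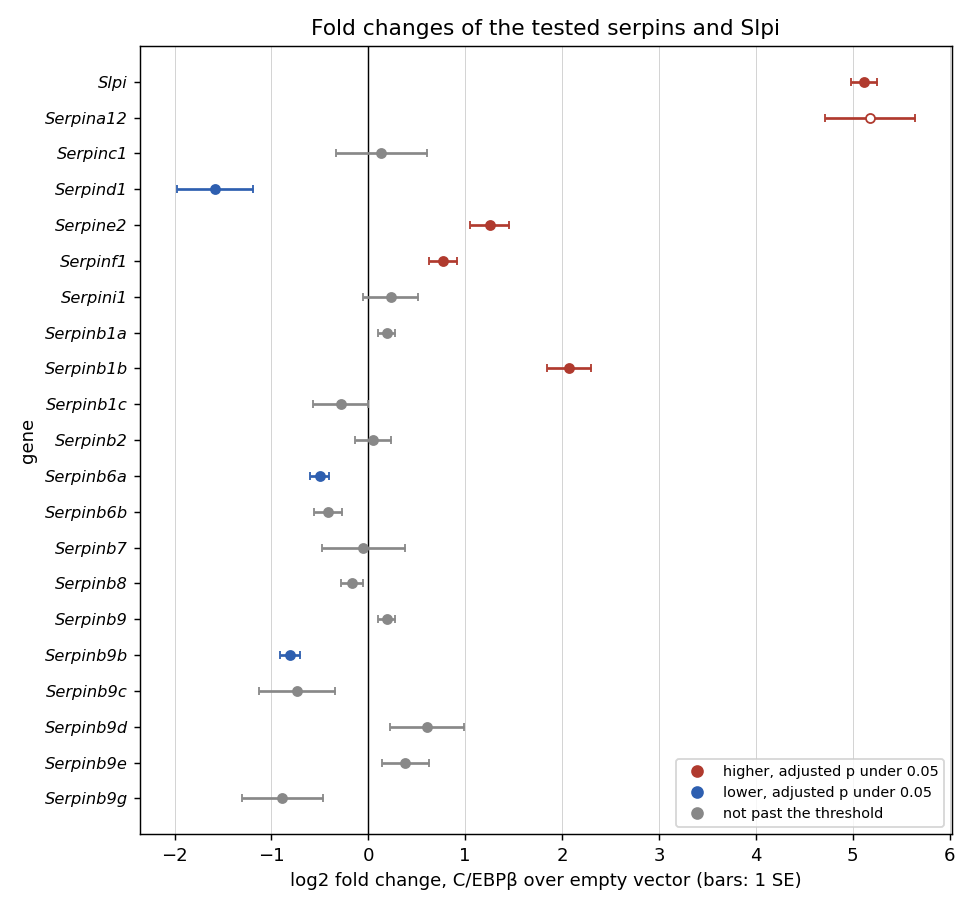
Log2 fold change, C/EBPβ over empty vector, of the 21 tested members with bars of 1 SE; red is higher, blue lower and grey not past an adjusted p of 0.05. Slpi (5.11) and Serpina12 stand apart at the right, the latter drawn open because its fitted value rests on 3 control counts and is given in the text as a ratio.

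Levels of different genes can be set side by side only per length, so CPM were divided by each gene's exon length in kilobases. That length takes in every annotated exon (5409 bases for Serpinb6a, 2359 for Serpinf1), so the order of genes depends on it. On this scale the described members summed to 447 and 415 in the controls and 537 and 473 with C/EBPβ. Serpinf1 and Serpinb6a led in both control libraries, at 148 and 131 CPM per kilobase for Serpinf1 and 148 and 144 for Serpinb6a, and these neighbours in the order do not differ beyond their spread. With C/EBPβ Serpinf1 (275 and 202) stood above Serpinb6a (97.8 and 108). Serpinb1a (45.1 and 42.8), Serpinb9b (39.4 and 47.3) and Slpi (42.1 and 37.7) followed, with ranges that overlap for Serpinb9b and each of the others. Clade B genes together made up 65.9% and 67.4% of the per-length sum in the controls and 39.3% and 47.9% with C/EBPβ. Serpinf1 went from 33.0% and 31.6% to 51.2% and 42.7% of it, and Serpinb9b from 17.4% and 17.8% to 7.34% and 10.0%. Slpi, 10th in both control libraries with 0.249% and 0.286%, was 4th and 5th with C/EBPβ, at 7.85% and 7.96%. Shares add up to a fixed total, so a rise of one gene lowers those of the others, and they were not tested. In CPM without length, Serpinb6a stood above Serpinf1 in both controls, and their ranges overlapped with C/EBPβ.

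**Figure D4:**
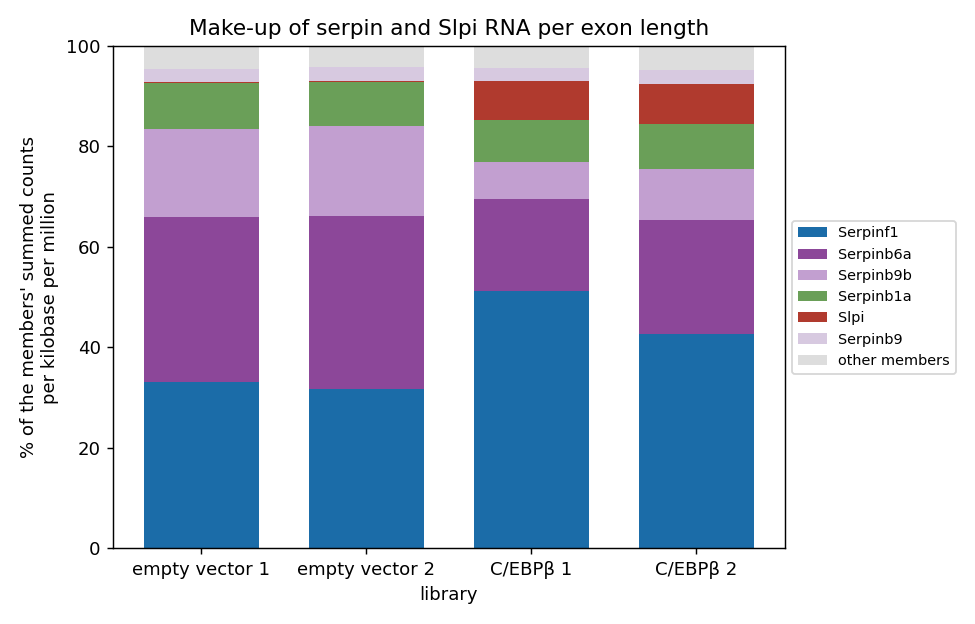
Share of each of the 6 leading described members in the summed CPM per kilobase of all described members, as stacked bars for each library. Genes left out of the description are not in the sum. Serpinf1 takes 33.0% and 31.6% in the empty vector libraries and 51.2% and 42.7% in the C/EBPβ libraries, and the red segment of Slpi, a thin line in the former, widens in the latter.

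The proteases that these inhibitors meet, and the receptors that clear the complexes, were described from lists chosen for this family. Of 11 genes of plasminogen activation 8 passed the count filter, with 1 higher and 2 lower (median log2 fold change -0.15). The activators of plasminogen moved in opposite directions. Plau, urokinase, fell from 306 ± 35.1 to 185 ± 30.3 CPM (SD, n = 2 per group; log2 fold change -0.73, SE 0.13), and Plat, tissue plasminogen activator, rose from 70.8 ± 5.41 to 112 ± 11.7 CPM (0.66, SE 0.10). S100a10, a plasminogen-binding partner of annexin, fell by 0.36 on the log2 scale (adjusted p = 0.0369), a call lost without empty vector replicate 1, C/EBPβ replicate 1 or C/EBPβ replicate 2 (adjusted p = 0.118, 0.129 and 0.0508).

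Among clotting proteases and cofactors 5 of 11 tested genes rose and 2 fell (median 0.63). Thbd, thrombomodulin, which redirects thrombin towards protein C, rose from 35.4 ± 0.463 to 191 ± 15.8 CPM (log2 fold change 2.43, SE 0.09). F3, tissue factor, the starter of clotting, rose from 19.7 ± 5.53 to 80.3 ± 25.5 CPM (2.02, SE 0.24), and F5, a cofactor of thrombin formation, from 0.989 ± 0.389 to 11.8 ± 0.0958 CPM (3.57, SE 0.23). F2rl1, a receptor cut by trypsin-like proteases, fell from 2.82 ± 0.166 to 0.130 ± 0.109 CPM (-4.15, SE 0.38), with -5.66 when C/EBPβ replicate 2 was left out and -3.75 when C/EBPβ replicate 1 was. F2, prothrombin, stood under 1 CPM and fell by 2.24 on the log2 scale (adjusted p = 0.0155). This call ended when empty vector replicate 2 was left out (-1.79, adjusted p = 0.127), and DESeq2 did not make it (adjusted p = 0.0881).

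The targets of Slpi and clade B in leukocyte granules were rare. Of 15 neutrophil, mast cell and granzyme genes listed, 14 were found and 6 passed the count filter, with 1 higher and 0 lower in edgeR, where 2 were lower at an unadjusted p under 0.05. DESeq2 called 2 higher and 0 lower, and limma-voom 1 higher and 0 lower. The riser in edgeR was Ctsg, cathepsin G, with 2 counts over the controls and 116 over the C/EBPβ libraries, a ratio of 35.2 with a 95% counting interval of 9.53 to 294. Elane, neutrophil elastase, lay between 0 and 0.0524 CPM in all 4 libraries. Gzme, a granzyme, was the most abundant of the list at 8.19 and 9.81 CPM in the controls and 10.0 and 19.0 CPM with C/EBPβ, and did not pass in edgeR (log2 fold change 0.71, adjusted p = 0.0849). It passed in DESeq2 (0.70, adjusted p = 0.0378), and in edgeR with the replicate number as a covariate (0.64, adjusted p = 7.92e-04). With unfiltered genes in edgeR it also passed (adjusted p = 3.88e-06), with the limit given for that setting at Serpina1d. Without C/EBPβ replicate 1 the value was 1.08, and without C/EBPβ replicate 2, the highest library, it was 0.16.

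In the cathepsin list, which beside cysteine cathepsins holds Ctsa and the aspartic protease Ctsd, 2 of 10 tested genes rose and 0 fell in edgeR, where 1 was lower at an unadjusted p under 0.05 and 0 in DESeq2 and limma-voom. The risers were Ctsf (0.73, adjusted p = 0.0134) and Ctso (0.45, adjusted p = 0.0329). The Ctsf call needed empty vector replicate 2 (adjusted p = 0.0618 without it), and that of Ctso ended with any 1 of the 4 libraries left out (adjusted p = 0.0615 to 0.120). Among other trypsin-fold and HtrA proteases 3 of 12 rose and 2 fell (median 0.26). Htra1, a secreted matrix protease, rose from 139 ± 2.06 to 197 ± 7.23 CPM (0.50), and Klk10, a kallikrein, fell by 2.07 on the log2 scale from under 1 CPM. Htra3 (0.82, adjusted p = 0.0236) lost its call without empty vector replicate 2 (adjusted p = 0.115). Tmprss6 (1.34, adjusted p = 0.0302) lost it in DESeq2 (adjusted p = 0.131) and without empty vector replicate 1, empty vector replicate 2 or C/EBPβ replicate 1 (adjusted p = 0.177, 0.0549 and 0.0975), and Prss23 (-0.28, adjusted p = 0.0450) without any 1 of the 4 libraries (adjusted p = 0.0542 to 0.326).

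Clearance receptors and cofactors moved both ways, with 4 of 11 tested genes rising and 2 falling (median 0.02). Vldlr, an endocytic receptor that takes up serpin and protease complexes, rose from 4.60 ± 0.713 to 13.8 ± 0.278 CPM (log2 fold change 1.58, SE 0.15). The heparan sulfate proteoglycan Sdc1 rose from 215 ± 5.73 to 391 ± 12.3 CPM (0.86), and Lrpap1, a chaperone of these receptors, from 57.7 ± 1.86 to 78.7 ± 4.28 CPM (0.44). Pnpla2, a lipase that binds the Serpinf1 protein, fell from 37.9 ± 0.680 to 26.8 ± 1.89 CPM (-0.50). Lrp8 fell by 0.29 on the log2 scale, a call that ended without empty vector replicate 2, C/EBPβ replicate 1 or C/EBPβ replicate 2 (adjusted p = 0.0582, 0.245 and 0.157).

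Inhibitors of other families were few: 10 of 29 listed genes passed the count filter, with 5 higher and 1 lower (median 0.28). Pi15, a secreted trypsin inhibitor, rose from 8.27 ± 0.515 to 56.8 ± 10.1 CPM (log2 fold change 2.78, SE 0.14), and Pi16 from 0.949 ± 0.0335 to 2.40 ± 0.282 CPM (1.35, SE 0.23). Kng1, a kininogen, had 0 counts in the controls and 47 with C/EBPβ, 9.51-fold higher with the controls set to 3 counts in total. Cst6, a cystatin that inhibits cysteine proteases, fell from 21.2 ± 2.54 to 6.66 ± 1.89 CPM (-1.65, SE 0.19). For the tested genes of each list, the share with a call stands beside 24.9% over all genes, and nothing particular to a list is read from it.

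Slpi, antitrypsin and several clade B serpins are products of epithelia, liver and leukocytes, so markers of those cells were counted in the same libraries. Over all genes tested, 14.1% were called higher and 10.8% lower. Of 12 hepatocyte markers 0 had enough counts to be tested, their summed level was at most 0.0980 CPM in any library, and Alb, Ttr and Ahsg had 0 counts in all 4. Of 12 epithelial and keratinocyte markers 4 could be tested and all 4 fell. Their summed level went from 77.2 and 77.9 CPM to 24.0 and 26.0 CPM, most of it Krt19 and Krt14, while Epcam and Esrp1 had 0 counts throughout. Of 12 leukocyte and macrophage markers 5 could be tested and 4 rose, with a summed level of 21.3 and 19.2 CPM in the controls and 38.8 and 40.7 CPM with C/EBPβ. Cd14, Lyz2, S100a8 and Csf1r rose with Slpi, whereas Tyrobp, Itgam and Adgre1 had 0 counts in all 4 libraries and Ptprc at most 0.0529 CPM. Of 10 endothelial markers 3 could be tested and 1 rose (Vwf), with summed levels of 1.99 and 1.61 CPM against 2.75 and 2.89 CPM, and Emcn and Erg at 0. The Vwf call needed empty vector replicate 2 (adjusted p = 0.0643 without it). The part of the leukocyte-type transcripts in the rise of Slpi was not tested.

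The authors' deposited table of the same comparison lists 30 members, 27 of them with an adjusted p, of which 6 were higher and 3 lower with C/EBPβ, against 12.4% and 13.6% of all its 16596 genes with an adjusted p. In that deposited table the log2 fold change was 5.00 for Slpi, 3.86 for Serpina12, 1.93 for Serpinb1b, 1.23 for Serpine2 and 0.72 for Serpinf1. For Serpina12 DESeq2 on the 4 libraries here gave 5.25. The settings behind the deposited fold changes are not known, so their sizes are not set against those of the edgeR fit. The authors' deposited table also called Serpina3g (2.05, adjusted p = 0.00919), which had too few counts to be tested here, and Serpinb6b (-0.45, adjusted p = 0.0462), and did not call Serpind1 (-1.31, adjusted p = 0.0841). The base mean of Serpina6, corticosteroid-binding globulin, was 51.1 in the authors' deposited table, whereas its counts in the 4 libraries were 0, 0, 2 and 4. The table's values therefore cannot come from these 4 count files alone, and it covers the same comparison, so its calls are no independent repeat.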

How the data were processed

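Per the file headers, the authors counted read pairs per gene with featureCounts 1.5.1 in reverse-stranded mode on GENCODE M12, giving whole-number counts. Reads that fit several places or genes were not counted. Per the submitters' processing notes, alignment used HISAT2 2.0.4 on GRCm38, featureCounts 1.4.6 and DESeq2, and the 2 featureCounts versions were not reconciled. The authors' deposited table gives a mean signal over libraries, log2 fold changes and their SE, a test statistic (a score), and p-values raw and adjusted. It was described, not retested.

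Symbols of 49326 of 49585 identifiers came from the reference. Genes passed filterByExpr of edgeR 4.0.16 (minimum count 10, total 15; R 4.3.3), and were fitted with TMM scaling and the quasi-likelihood test with no covariate. SEs were derived from the F statistic. Bounds set a group with 0 counts to 3 counts and take the other group's count as exact, so they leave out its counting error. Intervals are exact conditional binomial, at 95%, and cover counting error only. The procedure was tested on simulated data with 200 changed genes, of which 177 were recovered, while 12 unchanged genes were called among the 14806 genes simulated. Only 2-fold and 4-fold changes were simulated, so the recovery does not extend to smaller ones such as that of Serpinf1 (1.71-fold). Alternatives used DESeq2 1.42.0, limma 3.58.1, other scalings and filters, a 1.5-fold threshold, a replicate block and each library left out.

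Members, lists and tests were chosen with earlier results of these data known. All tested members are named, and untested ones from 10 counts. From each list up to 3 called genes in each direction are named by adjusted p, with others named after their values were seen. Protein sequences were not used here, and 1 member is not reported here.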

Additional observations from a re-analysis of the deposited data

How the results depend on the processing

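Of the 21 tested members, 12 kept their sign and their side of the threshold under every alternative that gave a value. Slpi, Serpina12, Serpinb1b and Serpine2 were called in all of them. The count of members that rose was 5 with the other scalings, the stricter filter, limma-voom and DESeq2, and 8 with no low-count filter, where more genes are tested. In that last setting several called members also had far smaller adjusted p at nearly the same fold change. A test against a 1.5-fold change kept 4 members that rose and 0 that fell (2 at an unadjusted p under 0.05), and called 1259 of all genes and 13 of the listed partners, in place of 3759 and 30. By construction it asks for a larger difference. With 1 library left out, all-gene calls ran from 2493 (without C/EBPβ replicate 1) to 3462. Signs of members turned only in uncalled genes, each when 1 library was left out: Serpinb2 (range -0.18 to 0.32), Serpinb7 (-0.63 to 0.41), Serpinc1 (-0.44 to 0.99) and Serpini1 (-0.056 to 0.40). The cause was not tested. A left-out library leaves 1 sample in a group, which is assumed to vary like the other group.

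The labels give both groups replicate numbers 1 and 2 without saying what they share. Deviations of same-numbered libraries correlated at 0.20 over 9839 genes. The fit with the replicate block called 4536 genes, 5 members that rose and 4 that fell, the added one being Serpinb6b (-0.41, adjusted p = 0.0324). Per-length shares depend on exon length: without it Serpinf1 would be 21.2% and 36.3% and Serpinb6a 50.7% and 36.1% of the sum in the controls and with C/EBPβ. At 1 count per 0.0109 to 0.0264 CPM, depth limits the 41 untested members to counting ratios and bounds. The 3 that passed with no low-count filter did so with 0 control counts, in the setting where adjusted p were far smaller.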
